A study of Homo sapiens with 9 samples.

Results

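Apolipoproteins and the proteins that assemble lipoproteins were followed in Huh-7 cells, a human hepatoma line, by ribosome profiling, which sequences the mRNA fragments covered by translating ribosomes. The 10 genes described, called the members below, are APOA1, APOA2, APOB, APOC1, APOC3, APOE, APOH, APOM, MTTP and P4HB, chosen by name for their place in lipoprotein biology by a rule that uses no measured value, though with earlier results of these data known, out of 9221 genes in the 2 deposited tables. Cells were exposed for 1 hr to 1.5 μM PF8503 (PF-06378503), to 1.5 μM PF846 or to 0.5% DMSO as the vehicle, in 3 biological replicates each. The study asked which nascent proteins each compound stalls on the ribosome. PF846 is spelled PF-06446846 in the design text and PF-067446846 in the sample labels. The labels name no genetic change, and a single tumour line stood for hepatocytes. All cells were lysed with cycloheximide, an elongation inhibitor.

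Each table sets a compound against vehicle and holds the authors' mean normalized read count per transcript and condition. Values of single libraries were not analysed here, so no replicate error, interval, depth per library or test is given below, and every difference is a description of means over libraries. The library names in the sample descriptions end in a lane number and place each condition in sequencing lanes of its own, and the effect of lane and that of condition cannot be told apart. The cell identity matched the label: all 9 hepatocyte markers were present in the PF846 table with 3.96% of its vehicle signal, AFP and ALB held ranks 1 and 2, and of 8 markers of blood, endothelium, fibroblasts and macrophages only PECAM1 and CD68 were listed, with 0.0101%.

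Lipoproteins carry triglyceride and cholesterol through plasma within a shell of phospholipid and apolipoprotein. Hepatocytes build very low density lipoprotein (VLDL) while APOB, its large structural protein, is still entering the endoplasmic reticulum (ER), where the microsomal triglyceride transfer protein, a dimer of MTTP and the protein disulfide isomerase P4HB, loads it with lipid. The smaller apolipoproteins move between particles and direct their enzymes and receptors, and APOA1 and APOA2 form the protein core of high density lipoprotein (HDL). All of these proteins enter the secretory pathway through an N-terminal signal sequence.

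Because both compounds act on ribosomes that carry a growing chain, the starts of the coding sequences are shown for the 4 members with the lowest ratios with PF8503, for APOC3, the lowest with PF846, and for APOA1, the HDL protein with the highest level per codon. Each line is the coding strand of the first 30 codons in GENCODE version 44 on GRCh38, with the codons of hydrophobic residues (alanine, isoleucine, leucine, methionine, phenylalanine, valine, tryptophan) in capitals.
APOH: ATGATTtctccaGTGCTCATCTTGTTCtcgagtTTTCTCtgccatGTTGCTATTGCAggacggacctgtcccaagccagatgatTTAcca
APOA2: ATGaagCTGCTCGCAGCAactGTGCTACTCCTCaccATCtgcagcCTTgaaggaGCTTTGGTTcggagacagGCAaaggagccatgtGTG
MTTP: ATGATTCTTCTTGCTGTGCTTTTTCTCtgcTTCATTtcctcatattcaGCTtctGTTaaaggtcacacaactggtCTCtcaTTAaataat
P4HB: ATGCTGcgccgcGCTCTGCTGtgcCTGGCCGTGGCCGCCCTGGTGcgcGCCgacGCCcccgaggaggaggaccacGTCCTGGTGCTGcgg
APOA1: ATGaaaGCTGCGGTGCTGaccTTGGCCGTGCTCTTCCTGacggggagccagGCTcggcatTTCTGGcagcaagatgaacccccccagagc
APOC3: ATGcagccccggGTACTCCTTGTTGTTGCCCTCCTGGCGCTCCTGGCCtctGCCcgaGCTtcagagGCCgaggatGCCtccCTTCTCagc

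These stretches lie on GRCh38 at chr17:66228171-66229379 (minus strand) for APOH, chr1:161223013-161223401 (minus) for APOA2, chr4:99574910-99581933 (plus) for MTTP, chr17:81860382-81860471 (minus) for P4HB, chr11:116837111-116837387 (minus) for APOA1 and chr11:116830583-116830807 (plus) for APOC3. All but that of P4HB span 2 coding exons. Hydrophobic codons numbered 14 of 30 in APOH and in APOA1, 15 in MTTP, 16 in APOA2, 18 in P4HB and 19 in APOC3. APOH and APOA1 also held 4 leucine codons each. Whether these counts bear on the ratios was not tested.

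Mean Kyte-Doolittle hydropathy over residues 2 to 30, in which higher values are more hydrophobic, ranged over the 10 members from -0.13 in APOA1 to 1.19 in APOC1, against a median of -0.36 and a 95th percentile of 1.01 over 8698 matched transcripts. Of those transcripts, 91.4% were less hydrophobic than APOH, 92.4% than APOA2, 95.3% than MTTP and 86.9% than P4HB. The other members spread more widely, with 96.9% for APOC1, 94.1% for APOC3, 92.5% for APOB, 82.9% for APOM, 82.5% for APOE and 61.9% for APOA1, so that APOB and APOC3 lay among the 4 members with low PF8503 ratios, APOC1 above them and the other members below them.

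Pairs of the members are neighbours in the genome. APOA1 (chr11:116835751-116837622, minus strand) and APOC3 (chr11:116829706-116833072, plus) lie 2678 bases apart on opposite strands, and APOE (chr19:44905791-44909393) and APOC1 (chr19:44914247-44919349) lie 4853 bases apart on the plus strand. APOH (chr17:66212033-66256525, minus) has 8 exons, MTTP (chr4:99564081-99623997, plus) 18 and P4HB (chr17:81843159-81860856, minus) 11. APOA2 lies at chr1:161222292-161223631 (minus), APOB at chr2:21001429-21044073 (minus) and APOM at chr6:31652416-31658210 (plus).

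In vehicle the apolipoproteins spanned a wide range of footprint levels. Levels of different genes compare only per length, so the vehicle mean was divided by the codons counted by default, which leave out 10 at each end, on the scale of the PF846 table and taking that default region for every transcript. Per counted codon, APOA1, the main HDL protein, stood at 94.98 normalized counts, APOA2, the next HDL protein, at 65.7 and APOC1, a small exchangeable apolipoprotein, at 64.7. P4HB followed with 31.3, APOE, the ligand of the LDL receptor family, with 27.8 and APOB with 19.6. These 6 lay above the 95th percentile of 11.4, the median being 0.781.

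MTTP stood at 9.27, APOC3, an inhibitor of lipoprotein lipase, at 6.29 and APOH, a phospholipid-binding plasma glycoprotein, at 5.00 normalized counts per codon. APOM, the HDL carrier of sphingosine-1-phosphate, was the lowest at 0.337, below the median. Since no spread between libraries is known, the order of close neighbours such as APOA2 and APOC1, or P4HB and APOE, is not settled. Total signal gave another order, since APOB has 4563 codons: APOB held rank 4 of all transcripts with 0.924% of the vehicle signal and APOA1 rank 23 with 0.244%, although APOA1 was 4.85 times APOB per codon. The 9 members of the PF846 table held 1.61% of its vehicle signal.

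**Figure D1:**
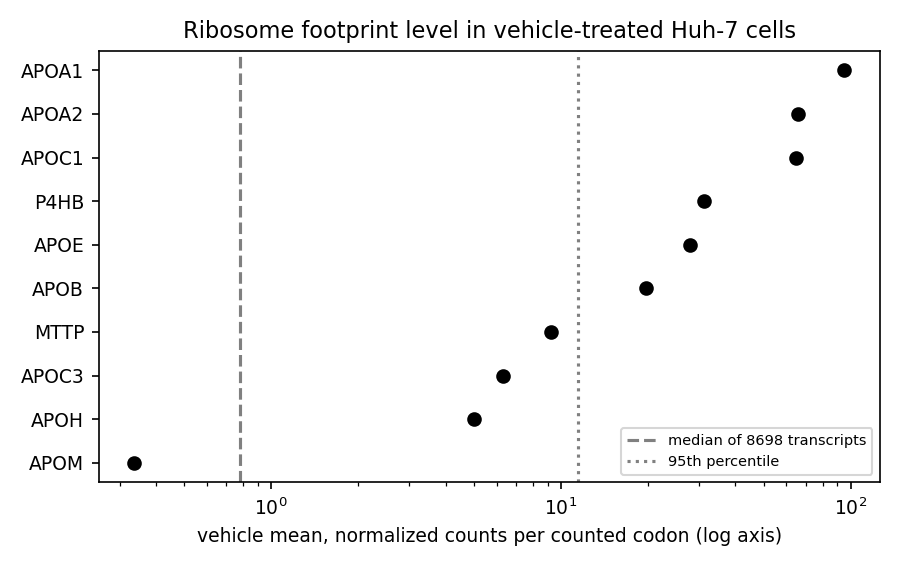
Vehicle mean of each member in normalized counts per counted codon, on a log axis, with 1 point per gene and no error since only means were used. The dashed line is the median of 8698 transcripts (0.781) and the dotted line their 95th percentile (11.4); 6 members lie above the latter, and APOM alone lies below the median.

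With PF8503, APOH, APOA2, MTTP and P4HB had lower means than with vehicle by 0.2 or more on the log2 scale, and no member was higher by that much. That is 4 of 10 members, where 6.33% of all 9157 transcripts were lower and 6.57% higher. For APOH and APOA2 the direction is partly built into the counting, as described below. At a threshold of 0.5, APOH was the 1 member lower and none was higher, beside 1.08% of all transcripts lower and 0.24% higher. Over the 10 members the median log2 ratio was -0.056 and 6 lay below 0, and over all transcripts the median was 0.013. Footprints follow both the amount of an mRNA and its translation, which cannot be told apart here. With normalized counts, a change shared by all transcripts, in cell number or in footprints per cell, would not show in these ratios.

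Of the VLDL assembly proteins, APOB had a mean of 97160 normalized counts in vehicle and 92555 with PF8503, a log2 ratio of -0.070. MTTP, the lipid-transfer subunit, had 8850 in vehicle and 7310 with PF8503, a log2 ratio of -0.28. P4HB, its partner, had 16661 in vehicle and 14143.0 with PF8503, a log2 ratio of -0.24. The dimer's subunits thus lay at 82.6% and 84.9% of their vehicle means, and the APOB that they load at 95.3%.

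To describe how far such ratios lie from those of other transcripts, each member was set against the 200 transcripts nearest to it in mean signal. For the most abundant members these are not close in signal. For APOB their means ran from 7436 to 203308 with PF8503 and from 6739 to 189131 with PF846. Of the 200, 10 were lower than MTTP and 12 lower than P4HB, and both members lay within the central 95% of their neighbours (-0.47 to 0.19 and -0.43 to 0.16). Over all 9157 transcripts, 3.59% were lower than MTTP and 4.71% lower than P4HB. Among transcripts counted over the same region in both tables, as described below, the shares were 2.36% and 3.4%. That set, chosen after seeing the data, leaves out the 92 transcripts with a shorter PF8503 region, which all lay below vehicle. APOB had 30 of its 200 lower.

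Among the HDL proteins, APOA1 had 25632 normalized counts in vehicle and 25899.8 with PF8503, a log2 ratio of 0.015. APOA2 had 5141 in vehicle and 3935 with PF8503, a log2 ratio of -0.39, or 76.5% of vehicle. Of the 200 nearest transcripts, 100 were lower than APOA1 and 3 lower than APOA2. The place of APOA2 is not on a par with that of APOA1, since APOA2 was counted over a shorter region with PF8503, a set of transcripts that all lay below vehicle, as described below, and the difference between them was not tested. APOM had 61.8 in vehicle and 68.8 with PF8503, a log2 ratio of 0.15, where transcripts of like mean spread from -0.42 to 0.41.

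Means of APOC1, APOC3 and APOE, which are exchangeable apolipoproteins as APOA2 is, lay near or above vehicle. APOC1 had 4454 normalized counts in vehicle and 4761 with PF8503, a log2 ratio of 0.096, and APOC3 had 543 and 527, a log2 ratio of -0.042. APOE had 9026 in vehicle and 10279.9 with PF8503, a log2 ratio of 0.19 and the highest of the members. Only 5 of the 200 nearest transcripts were higher than APOE, which lay just above their central 95% (-0.30 to 0.18).

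APOH was the member farthest from vehicle. It had 1249 normalized counts in vehicle and 719 with PF8503, 57.5% of vehicle and a log2 ratio of -0.80. Its region was also the shorter with PF8503. Among the 200 nearest transcripts 2 were lower, and 0.426% of all transcripts in the table were lower.

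With PF846, no member passed 0.5 in either direction, beside 0.396% of 8839 transcripts lower and 0.0792% higher. At the lower threshold of 0.2, APOC3 was the 1 of 9 members lower and none was higher, beside 3.64% of transcripts lower and 3.27% higher. APOM was absent from the PF846 table, which holds transcripts with more than 30 counts by the study's methods, so its absence is not a level of 0. Its vehicle mean, scaled to that table, was 56.6, above the lowest mean kept there, 42.8. Why APOM was left out is not known. The median log2 ratio of the 9 members was -0.037, and that of all transcripts 0.00086.

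APOC3 had 497 normalized counts in vehicle and 408 with PF846, 82.1% of vehicle and a log2 ratio of -0.28. None of the 200 transcripts nearest in mean was lower, and their central 95% ran from -0.16 to 0.16. Its genomic neighbour APOA1 had 23461 and 22302, a log2 ratio of -0.073, with 11 of 200 lower. APOC3 thus had the lowest ratio of the members with PF846 and lay near vehicle with PF8503.

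The assembly proteins lay close to vehicle with PF846. APOB had 88941 normalized counts in vehicle and 93558 with PF846, a log2 ratio of 0.073, the highest of the members, with 12 of the 200 nearest transcripts higher. MTTP had 8100.4 and 8363, a log2 ratio of 0.046, and P4HB had 15250.5 and 14673, a log2 ratio of -0.056. The means of APOB, MTTP and P4HB thus stood at 105%, 103% and 96.2% of vehicle.

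The remaining members lay closer to vehicle with PF846 than APOC3 did. APOA2 had 5257 normalized counts in vehicle and 4925 with PF846, a log2 ratio of -0.094, with 12 of the 200 nearest transcripts lower. APOH had 1624 and 1583, a log2 ratio of -0.037, with 49 lower. APOC1 had 4077 and 4049.9, a log2 ratio of -0.0095, and APOE had 8262 and 8265, a log2 ratio of 0.00058.

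**Figure D2:**
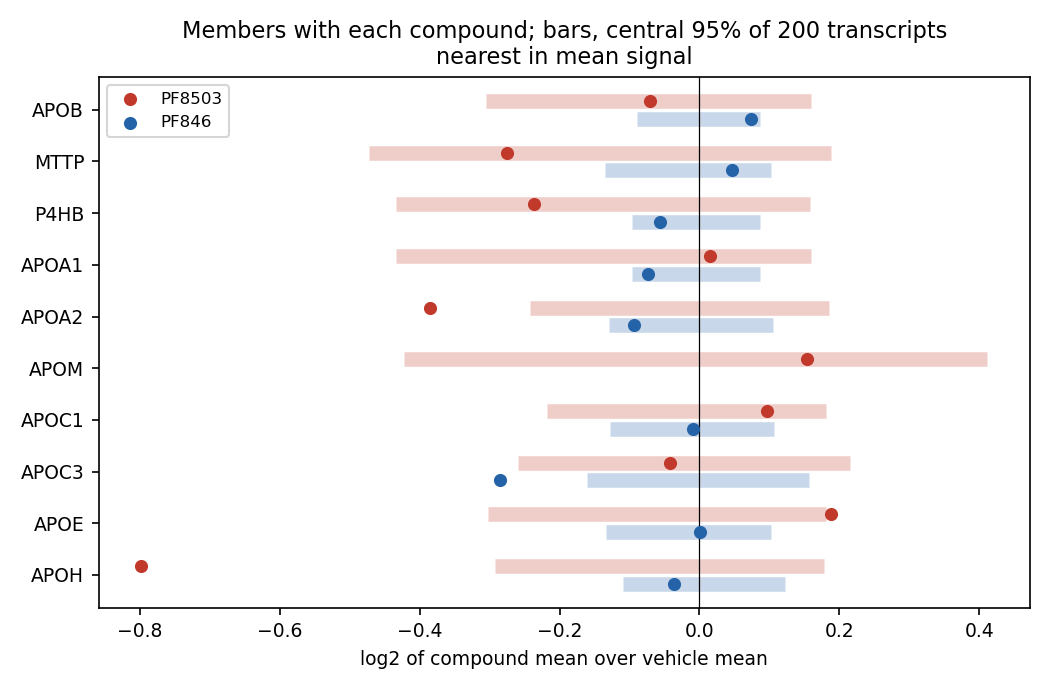
The log2 ratio of the compound mean over the vehicle mean (horizontal axis) for each member (rows) with PF8503 (red points) and PF846 (blue points), with bars for the central 95% of the 200 transcripts nearest in mean signal, which is a spread over transcripts and not over libraries. APOH at -0.80 and APOA2 at -0.39 lie below their bars with PF8503, APOC3 at -0.28 below its bar with PF846, and APOE at 0.19 just above its bar with PF8503.

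Both compounds were given at 1.5 μM for 1 hr, so the 1 pair of compounds was compared at matched dose and time over the 9 members in both tables. Both ratios share the vehicle libraries, and with means alone neither a test nor an interval of the difference could be computed. PF8503 minus PF846 on the log2 scale was -0.76 for APOH, -0.32 for MTTP and -0.29 for APOA2, the 3 members lower by 0.2 or more, beside 5.42% of 8775 transcripts. For APOH and APOA2 the ratios cover unlike regions. The PF8503 mean over the PF846 mean, scaled for the tables, gave -1.27 and -0.45. These values are not corrected for region. They take in the shorter PF8503 region, which left out 29.6% of vehicle signal for APOH and 10.5% for APOA2. APOC3 was the 1 member with a difference higher by 0.2 or more, at 0.24, beside 6.09% of transcripts.

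For APOH 0.399% of transcripts had a lower difference, for MTTP 2.17%, for APOA2 2.7% and for P4HB, at -0.18, 6.71%. The sign was opposite for APOE, with a difference of 0.19 and 92.8% of transcripts lower, and for APOC3, with 96.5% lower. The differences were -0.14 for APOB, 0.088 for APOA1 and 0.11 for APOC1. APOH and MTTP lay outside the central 95% of all differences (-0.30 to 0.27), and the other 7 members lay within it. With no error known, the smaller differences do not show that the compounds acted alike or unlike on those genes.

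**Figure D3:**
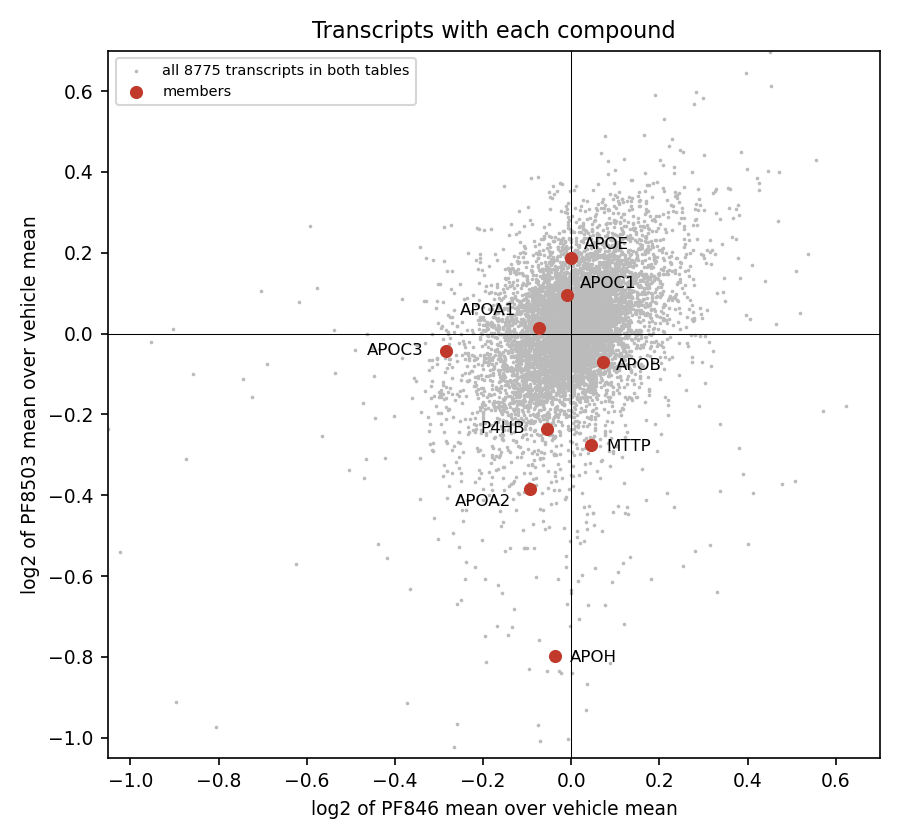
The log2 ratio with PF846 (horizontal axis) and with PF8503 (vertical axis), both over the same vehicle libraries, for the 9 members in both tables (red) and for 8775 transcripts (grey, with 29 outside the axes). APOH lies at -0.80 on the PF8503 axis and near 0 on the PF846 axis, and APOC3 lies at -0.28 on the PF846 axis and near 0 on the PF8503 axis.

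The low ratios of APOH and APOA2 come with another feature of the tables. The authors by default counted reads over the coding sequence without its ends. Where cumulative reads of treated and vehicle cells differed past their threshold, they counted only 3′ of the position of largest difference. As the same vehicle libraries enter both tables, the ratio of their vehicle means is constant (median 1.09) wherever the same codons were counted. By this ratio, 7 of the 9 members and 98.5% of the 8775 transcripts had the same region in both tables. For APOH the region counted with PF8503 held 70.4% of the vehicle signal of the region counted with PF846, and for APOA2 89.5%. What part the region has in their ratios was not tested.

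All 92 transcripts whose PF8503 region was the shorter had PF8503 ratios below 0, with a median log2 of -0.58 and a range of -2.09 to -0.11. The region is chosen by a difference in cumulative reads between treated and vehicle cells. A ratio below 0 is thus partly built into the counting and is not independent support. Among the 92, 25 were lower than APOH and 71 were lower than APOA2. Their median log2 ratio with PF846 was -0.011, beside -0.037 for APOH and -0.094 for APOA2.

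MTTP, P4HB, APOE and APOC3 were counted over the same region in both tables. Among the 8641 such transcripts, 2.36% were lower than MTTP and 3.4% lower than P4HB with PF8503, 7.13% were higher than APOE with PF8503, and 1.01% were lower than APOC3 with PF846. Over the 7 members with the same region the median log2 ratio was -0.042 with PF8503 and -0.0095 with PF846, beside 0.014 and 0.0014 over all such transcripts.

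**Figure D4:**
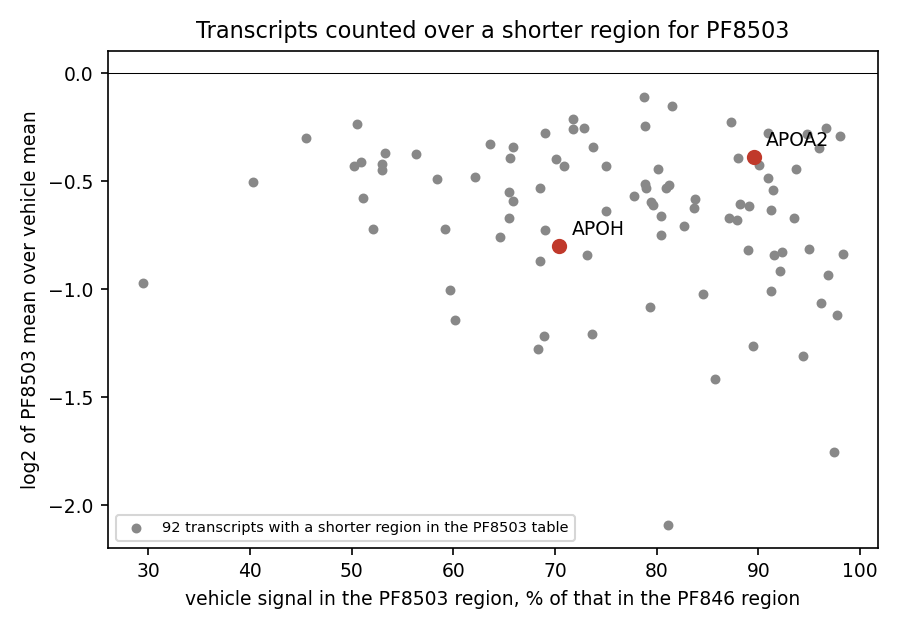
The 92 transcripts whose counted region was shorter with PF8503, with the vehicle signal of that region as a percent of the region in the PF846 table (horizontal axis) and the log2 ratio of the PF8503 mean over vehicle (vertical axis). APOH (70.4%, -0.80) and APOA2 (89.5%, -0.39) are in red, and all 92 points lie below 0.

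APOH had the largest difference between compounds of the members, and the transcripts nearest to it over the pair of log2 ratios, among 8775, included GDI2, HSPB11, MPZL1 and SEC63. Their log2 ratios with PF8503 ran from -0.84 to -0.76 and with PF846 from -0.073 to 0.0027. HSPB11 belongs to intraflagellar transport and MPZL1 is a cell surface glycoprotein. GDI2, which recycles Rab GTPases, had 9246 normalized counts in vehicle and 5186 with PF8503. SEC63, a partner of the translocon through which secreted chains enter the ER, had 1081 and 604. The region of GDI2 was the same in both tables, and that of SEC63 held 73.2% of the vehicle signal.

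The rest of the lipoprotein pathway was described by lists. Among 18 other apolipoproteins and HDL-associated proteins, 3 were in both tables. APOA4 had 66.7 normalized counts in vehicle and 49.3 with PF8503, a log2 ratio of -0.44, and APOL2 had 187 and 143, a log2 ratio of -0.39, while CLU, or clusterin, an abundant chaperone of HDL, had 29126 and 29365, a log2 ratio of 0.012. None passed 0.5 with either compound, and with PF846 the 3 ran from -0.12 in APOA4 to -0.038 in APOL2.

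The list for lipid loading and VLDL export held 28 genes, of which 25 were listed for PF8503 and 24 for PF846. None passed 0.5 with either compound, and the medians were 0.040 and 0.0094. TM6SF2, a membrane protein of the secretory pathway that promotes VLDL lipidation, was the highest with both: 85.7 normalized counts in vehicle and 113 with PF8503 (log2 ratio 0.40), 78.5 and 107 with PF846 (0.45). Its counts were low beside the median means over all transcripts, 397 with PF8503 and 381 with PF846. Both of its ratios divide by the same vehicle libraries, so the 2 values are not independent. The lowest were SEC31A, of the vesicle coat that leaves the ER, at -0.10 with PF8503, and SORT1, a sorting receptor, at -0.18 with PF846. MTTP, outside this list, thus lay below all 25 with PF8503.

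Of 17 protein disulfide isomerase relatives and prolyl 4-hydroxylase partners of P4HB, 12 were in each table. With PF8503, 1 was lower past 0.5 and none higher, with a median of 0.022: TXNDC5 had 416 normalized counts in vehicle and 288 with PF8503, a log2 ratio of -0.53, and its PF8503 region held 80.9% of the vehicle signal. The highest was PDIA5 at 0.18. With PF846 none passed 0.5, the median was -0.059, and the list ran from -0.14 in TXNDC5 to 0.24 in TMX1.

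Among 11 lipoprotein receptors and uptake proteins, 9 were in each table. None passed 0.5 with PF8503, with a median of 0.085 and a range from -0.021 in LRP8 to 0.21 in LRP1, a large endocytic receptor of APOE. LRP8, another APOE receptor, was the 1 of 9 lower past 0.5 with PF846, with 116 normalized counts in vehicle and 59.8 with PF846, a log2 ratio of -0.95. Its regions differed as well, the PF8503 region holding 117% of the vehicle signal of the PF846 region. The PF846 region was thus the shorter, and a PF846 ratio below 0 is partly built into the choice of that region. Counts of LRP8 were also low.

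Of 14 genes of lipoprotein remodelling and lipid efflux, 4 were in each table and none passed 0.5 with either compound. With PF8503 the median was 0.0079 and the highest was ABCA1, the cholesterol exporter that loads APOA1, at 0.090. With PF846 the median was -0.076, from -0.21 in LIPG, endothelial lipase, to -0.0057 in ABCA1.

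**Figure D5:**
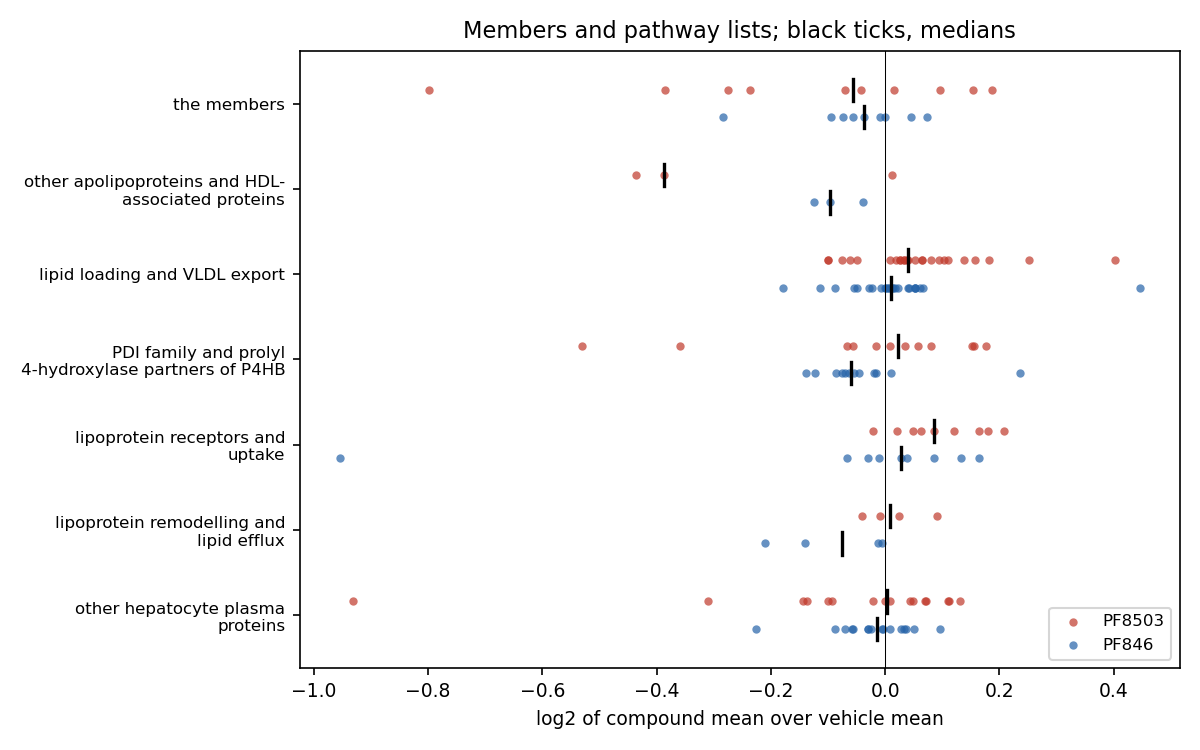
The log2 ratio of the compound mean over vehicle (horizontal axis) for the members and for each pathway list (rows), with PF8503 in red, PF846 in blue and a black tick at each median; each point is a gene. The members' medians are -0.056 with PF8503 and -0.037 with PF846, and the lowest points are APOH among the members, AMBP among the plasma proteins with PF8503 and LRP8 among the receptors with PF846.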

How the data were processed

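Ribosome footprints of 9 Huh-7 libraries were sequenced, 3 per condition, grouped by their labels. The authors removed adapters and ribosomal RNA reads, aligned with Bowtie to coding transcripts of GENCODE version 24 (GRCh38), kept unique alignments, counted the region 3′ of a pileup with a Z score of at least 2 or otherwise the coding sequence without 10 codons at each end, kept transcripts with more than 30 counts and normalized with DESeq; the versions of both tools are not given in the sources used here. The deposited signal is the mean normalized count per condition. These deposited tables also hold the authors' fold changes, their log2 values, p-values and FDR, which were not used.

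Here the log2 ratio of the compound mean over the vehicle mean was computed with pandas 2.3.3 and numpy 2.4.6 in Python 3.11.15, with no pseudocount. A transcript was counted as lower or higher past 0.5, with 0.2 as a second threshold. Regions were called different where the vehicle means, divided by their median ratio, departed by more than 0.002 on the log2 scale. This step was tested only on simulated means without added noise, which does not show how well it calls regions in the real data. The replicate numbers in the study's supplementary code are not those of the labels, which leaves the libraries behind each mean uncertain. Coding sequences came from GENCODE version 44 on GRCh38, and 8698 of 9221 symbols (94.3%) matched. The members and lists were named by function, with earlier results of these data known. Genes named are all members, the lowest and highest of each list and those past 0.5, and the 5 transcripts nearest to APOH; a few genes that this rule names are not reported here.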

Additional observations from a re-analysis of the deposited data

How the results depend on the processing

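No paired analysis was possible because the tables hold means and no values of single libraries; no library could be left out for the same reason, so depth and replicate spread limit every value by an unknown amount. All 57 log2 ratios of members against vehicle under the alternatives (centring on the table median or on the 200 nearest transcripts, adding 10 normalized counts) moved by at most 0.022. Members lower with PF8503 numbered 4 of 10 at a threshold of 0.2, beside 6.33% of all transcripts. For APOH and APOA2, among these, the direction is partly built into the counting. At a threshold of 1 the count was 0, and the share of all transcripts was not computed. With PF846, 1 of 9 members was lower at 0.2, beside 3.64% of all transcripts. Among transcripts with the same region in both tables, an alternative chosen after seeing the data, 0.393% were lower and 0.127% higher past 0.5 with PF8503 and 0.104% lower with PF846. Among transcripts with a mean of 1000 or more, 0.0% were higher with PF8503 and 0.0497% with PF846. Set as compound over compound mean, the difference was -1.27 for APOH and -0.45 for APOA2, since their regions differ, and the other 7 members kept their values. From the PF8503 table's vehicle means, divided by the same default codons although fewer were counted, the level came to 3.52 for APOH and 58.8 for APOA2, which are no levels per codon of the shorter regions.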

Other observations

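Other plasma proteins of hepatocytes, secreted beside the apolipoproteins, were mostly near vehicle. Of 20 listed, 16 were in each table, with medians of 0.0037 with PF8503 and -0.015 with PF846. AMBP, the precursor of alpha-1-microglobulin and bikunin, was the 1 lower past 0.5 with PF8503, with 21992 normalized counts in vehicle and 11529.7 with PF8503, a log2 ratio of -0.93, and its region held 96.9% of the vehicle signal. With PF846 AMBP had 20779 and 21267, a log2 ratio of 0.034. None passed 0.5 with PF846, where AHSG, or fetuin-A, was the lowest at -0.23 and HPX, the heme-binding hemopexin, the highest at 0.095. HPX was also the highest with PF8503, at 0.13.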
